A study of Rattus norvegicus with 12 samples.

Results

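Gene expression at 6 weeks of a carbon tetrachloride model of rat liver cirrhosis was compared with that at 3 and 9 weeks, to find which genes dipped or peaked at the middle time and to which classes they belong. The comparison uses 9 of the 12 arrays of the series: the 3 arrays of 6 weeks against the 3 of 3 weeks and the 3 of 9 weeks. All groups are liver of Sprague-Dawley rats, labelled 12 weeks old in every sample, with no genetic change named. The 3, 6 and 9 week groups are livers of the carbon tetrachloride model, and the other 3 arrays are normal liver at 0h, given here beside the comparison. Tissue came from the middle of the right lobe and was measured on Affymetrix Rat Genome 230 2.0 arrays. The 3 arrays of a time carry the label of technical replicates, and neither the number nor the sex of the animals, nor dose, feeding or hour of sampling, is given in the sources used here. The p-values therefore measure the spread between arrays only, and the time and the animal or animals sampled at it cannot be told apart. The only control is normal liver at 0h, with no vehicle-treated liver of the same weeks.

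Carbon tetrachloride is turned by cytochrome P450 of the hepatocyte into a reactive radical, and repeated doses bring cell death, inflammation, regeneration and, with time, fibrous scars. In this injury the liver is entered by lymphocytes and monocytes. Interferon-gamma, which T and natural killer (NK) cells release, acts on hepatocytes, macrophages and endothelium, and induces guanylate-binding proteins, the chemokines that attract T cells, the immunoproteasome and, through the coactivator Ciita, the MHC class II genes. Hepatocytes at the same time supply plasma proteins and manage fuel, with genes that answer to feeding, glucocorticoid, glucagon and amino acid supply.

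Values are the authors' scaled signals, and differences are in log2(signal + 16) units. The contrast of a gene is its 6 week mean minus the average of its 3 week and 9 week means, with its SE. A gene is called when its p from limma is under 0.05 after Benjamini-Hochberg adjustment across 10315 genes and the contrast is at least 2-fold, and is called a dip or a peak only when 6 weeks also differed at least 2-fold and under the same adjusted p from 3 weeks and from 9 weeks separately. This scale understates differences of genes whose signals lie near or below 75.5, the level of the filter. The defining genes of hepatocytes were bright on all arrays: Alb, the main plasma protein, was 32575 ± 3665 at 6 weeks and 40836 ± 3879 in normal liver (SD, n = 3 arrays). The summed signal of the 12 defining hepatocyte genes was 287490 to 322802 at 6 weeks, 362802 to 402047 at 3 weeks, 296742 to 327424 at 9 weeks and 371536 to 427431 in normal liver. None of the 12 was called, and their median contrast was -0.23. Arrays of a group correlated across probe sets at r = 0.967 to 0.977. Arrays of 6 weeks correlated with those of 9 weeks at 0.964 to 0.969 and with those of 3 weeks at 0.951 to 0.956.

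At the 2-fold minimum dips far outnumbered peaks. At 6 weeks 126 genes dipped (1.22% of the genes tested) and 14 peaked (0.136%). By the contrast alone, 241 genes were lower (2.34%) and 84 higher (0.814%), 325 in all (3.15%), of which the 140 dips and peaks are the part that both steps bear out (1.36% of the genes tested). The median contrast of all genes was 0.01. Against 3 weeks alone 445 genes were lower (4.31%) and 331 higher (3.21%) at 6 weeks, and against 9 weeks alone 200 were lower (1.94%) and 60 higher (0.582%). The filter on the mean of all 12 arrays admits a gene that is dim at 6 weeks alone more easily than one that is bright at 6 weeks alone. Without the filter the counts were 140 dips and 21 peaks. With the filter but no fold minimum they were 919 dips and 617 peaks, with 2056 genes lower and 2011 higher by the contrast. All 3 arrays of 6 weeks lay below all 6 arrays of 3 and 9 weeks in 1272 genes (12.3%) and above them in 1036 genes (10.0%), and most of both missed 2-fold. The groups did not overlap in 122 of the 126 dips and in all 14 peaks, which the choice of these genes on the same arrays favours.

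By definition all dips were at least 2-fold on both sides. Their median step was -1.67 from 3 to 6 weeks and -1.40 for 6 against 9 weeks. In 19 of them the 9 week level was below that of 3 weeks by the same test, and in 0 it was above; over all genes 285 were lower at 9 than at 3 weeks (2.76%) and 311 higher (3.02%). In 119 of 126 dips the 6 week mean also lay below that of normal liver. In 29 dips the 6 week mean was under the filter's signal of 75.5 while the means of the other 3 groups were above it, and 11 of these are markers of T, NK and cytotoxic cells. Among the peaks 12 of 14 had a 6 week mean above that of normal liver. Choosing genes by their 6 week level favours these counts against normal liver, and the shares over all genes were not computed.

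**Figure D1:**
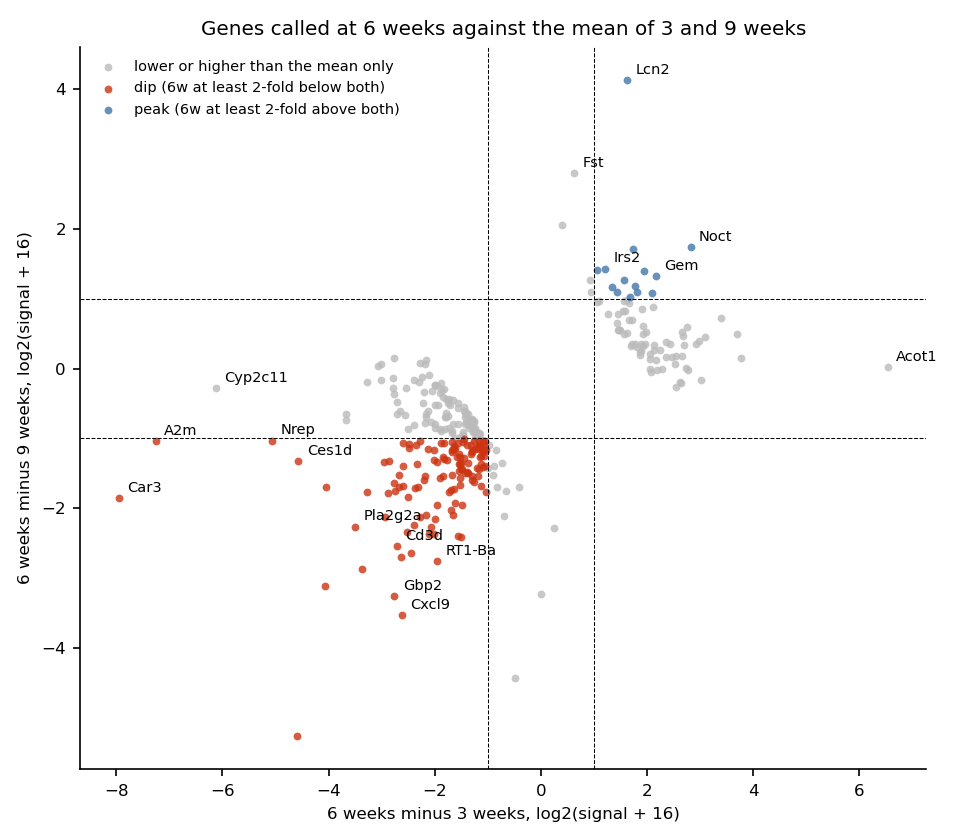
Each point is 1 of the 325 genes called by the contrast, placed by its 6 week mean minus its 3 week mean (x axis) and minus its 9 week mean (y axis), both in log2(signal + 16); dashed lines mark 2-fold. The 126 dips fill the lower left and the 14 peaks the upper right, while 70 higher and 115 lower genes (grey) passed the contrast without both steps. Both axes contain the same 6 week arrays.

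Many of the dips are genes of the immune system. Over 7 lists (T, NK and cytotoxic cells, macrophages, chemokines with cytokines and adhesion molecules, MHC class I, MHC class II, interferon-gamma response and type I interferon genes) 122 genes were measured, each counted once, and 45 of them dipped while 0 peaked. These 45 are 35.7% of all dips and 36.9% of the 122, against 1.22% dips over all genes tested. The lists were written with earlier results of these data known. All 7 hold dips, so these shares only describe this choice of lists. Outside the 7, the lists of B and plasma cells (9 measured), granulocytes and mast cells (6) and complement (22) held 0 dips. Igha_mapped and Mcpt9, which these lists do not hold, dipped and are given below. The tissue is bulk liver, in which fewer cells of a type and less RNA per cell cannot be told apart.

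Most genes of the interferon-gamma response were lower at 6 weeks than at 3 and 9 weeks. Of 12 measured, 8 dipped, 1 more (Cxcl10, a chemokine for T cells) was lower by the contrast alone at -1.25 ± 0.11, and the list's median contrast was -1.28. Cxcl9 had signals of 251, 236 and 253 at 6 weeks, against 1571, 1602 and 1600.4 at 3 weeks, 3026, 3035 and 2994 at 9 weeks and 729, 689.7 and 545 in normal liver. Cxcl9 is a chemokine that draws activated T cells through the receptor Cxcr3. Its 6 week arrays lay below those of every other group without overlap, with a contrast of -3.07 ± 0.07 (adjusted p = 3.95e-15) by limma, and a second probe set of the gene gave -2.74. Gbp2 had signals of 233, 207 and 190.0 at 6 weeks, against 1602, 1396 and 1545 at 3 weeks, 2104, 2160.2 and 2166 at 9 weeks and 1156, 1211 and 1169 in normal liver. Gbp2, a guanylate-binding protein of cell-autonomous defence, was thus lower at 6 weeks than even in normal liver, with a contrast of -3.01 ± 0.07 (adjusted p = 1.21e-15) by limma.

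Other members of the response were lower by less. Irf1, a transcription factor that interferon induces, had a contrast of -1.30 ± 0.06, with mean signals of 2149, 953 and 2615 at 3, 6 and 9 weeks. The GTPase Igtp had -2.07 ± 0.04, the related GTPase Irgm -1.16 ± 0.06, the ubiquitin-like Ubd -2.21 ± 0.05 and Irf8, a factor of myeloid cells, -1.14 ± 0.07. Further probe sets of Igtp gave -1.24, a dip, and -1.12, which was not a dip, with -0.84 against 9 weeks. The receptor chain Ifngr1 did not pass, with means of 1995, 2421 and 2387 and a contrast of 0.15 ± 0.05. Neither did Icam1, an adhesion molecule (-0.92 ± 0.07), or Cxcl11, a further ligand of Cxcr3 (-0.49 ± 0.06).

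Promoters of the genes at the front of this group are shown because the pathway acts through known DNA elements: factors of the STAT family bind a palindrome written here as TTCNNNGAA, and interferon-stimulated response elements (ISRE) are written as GAAANNGAAA. The stretches run from 250 bases before to 50 after the gene's start, 5′ to 3′ on the gene's strand, from RefSeq on GRCr8, and capitals mark matches of the 2 motifs on either strand. Cxcl9, Gbp2, Igtp and Irf1 were chosen after their values were seen, and Cd3d and Gzma are the 2 of the 4 largest dips among T and NK cell genes that hold a match.
Cxcl9, chr14:16006916-16007215, plus strand: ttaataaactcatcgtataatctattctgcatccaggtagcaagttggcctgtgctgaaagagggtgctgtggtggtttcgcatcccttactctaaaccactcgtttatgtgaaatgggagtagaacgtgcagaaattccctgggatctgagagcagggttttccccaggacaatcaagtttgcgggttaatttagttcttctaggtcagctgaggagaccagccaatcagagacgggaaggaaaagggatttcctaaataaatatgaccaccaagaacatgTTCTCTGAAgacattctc
Gbp2, chr2:234005477-234005776, plus strand: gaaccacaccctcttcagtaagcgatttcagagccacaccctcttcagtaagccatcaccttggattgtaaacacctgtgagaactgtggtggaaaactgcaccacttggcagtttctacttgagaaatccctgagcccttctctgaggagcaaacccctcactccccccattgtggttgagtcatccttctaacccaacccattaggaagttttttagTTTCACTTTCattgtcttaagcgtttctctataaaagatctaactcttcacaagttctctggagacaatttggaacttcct
Igtp, chr10:42874797-42875096, plus strand: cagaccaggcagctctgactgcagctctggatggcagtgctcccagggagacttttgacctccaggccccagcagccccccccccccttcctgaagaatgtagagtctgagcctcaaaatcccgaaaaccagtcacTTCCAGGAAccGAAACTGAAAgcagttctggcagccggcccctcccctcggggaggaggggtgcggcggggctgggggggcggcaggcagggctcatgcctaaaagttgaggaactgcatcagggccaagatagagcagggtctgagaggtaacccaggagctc
Irf1, chr10:38417685-38417984, plus strand: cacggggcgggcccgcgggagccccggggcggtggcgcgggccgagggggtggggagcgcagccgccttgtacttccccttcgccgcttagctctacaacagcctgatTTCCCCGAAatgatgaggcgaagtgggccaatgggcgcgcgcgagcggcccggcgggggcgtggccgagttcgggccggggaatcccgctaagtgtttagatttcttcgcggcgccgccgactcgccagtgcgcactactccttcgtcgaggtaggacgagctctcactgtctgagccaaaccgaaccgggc
Cd3d, chr8:54185269-54185568, plus strand: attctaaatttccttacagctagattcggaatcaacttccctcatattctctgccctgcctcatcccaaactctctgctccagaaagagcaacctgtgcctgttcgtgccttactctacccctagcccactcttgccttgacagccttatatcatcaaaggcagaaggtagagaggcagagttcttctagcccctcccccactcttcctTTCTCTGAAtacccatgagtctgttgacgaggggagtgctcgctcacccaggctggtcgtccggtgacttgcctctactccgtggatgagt
Gzma, chr2:46485647-46485946, minus strand: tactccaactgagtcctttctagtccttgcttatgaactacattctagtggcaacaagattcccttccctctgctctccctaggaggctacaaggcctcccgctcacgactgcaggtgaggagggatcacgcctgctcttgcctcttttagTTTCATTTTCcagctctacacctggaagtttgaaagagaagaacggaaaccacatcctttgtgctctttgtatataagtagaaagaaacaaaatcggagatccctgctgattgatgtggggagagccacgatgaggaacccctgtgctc

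The STAT letters stood in the promoters of Cxcl9, Igtp, Irf1 and Cd3d, and the ISRE letters in those of Gbp2, Igtp and Gzma. In Igtp the STAT match begins 114 bases and the ISRE match 103 bases before the start, so the matches lie next to each other. In Irf1 the STAT match begins 142 bases before the start, and in Gbp2 the ISRE match begins 31 bases before it. In Cxcl9 the STAT match lies after the start, beginning 32 bases downstream. The STAT letters were in 8.87% of all 33469 promoters of the table and in 7 of the 11 interferon-gamma response genes that have an entry. The ISRE letters were in 3.92% of all promoters and in 4 of those 11. Among the 7903 tested genes with an entry the shares were 6.73% and 3.1%. Among the 85 dips with an entry, 15 held the STAT letters and 18 the ISRE letters. Of the 21 T and NK cell genes with an entry, 3 held the first and 2 the second. Of the 9 peaks with an entry, 0 held either.

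Of 4 further motifs, the AP-1 letters TGANTCA were in 7.33% of all promoters and in 10 of the 85 dips, the CCAAT box in 37.5% and in 40 dips, the C/EBP-ATF letters TGATGNAA in 3.98% and in 4 dips, and the E2F letters TTTNGCGC in 1.28% and in 1 dip. Their shares among the 7903 tested genes with an entry were 4.87%, 38.7%, 2.06% and 2.32%, in that order. In the 11 interferon-gamma response promoters the CCAAT box was in 8, the AP-1 letters in 3 and the C/EBP-ATF and E2F letters in 0, so the shares of CCAAT and AP-1 were also above those of all promoters. The CCAAT box was in 2 of the 9 peaks and the other 3 were in 0. The promoters of Lcn2, Gzmm and Prf1 held none of the 6 motifs in this window. A match of letters is a description of the sequence and not a binding site.

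The MHC class II genes, whose products show peptides to CD4 T cells, dipped in 5 of 8 measured (RT1-Ba, RT1-Db1, RT1-Bb, RT1-Da and Cd74). In 6 of the 8 all 3 arrays of 6 weeks lay below those of 3 and 9 weeks, against 12.3% of all genes tested. The list median was -1.79. RT1-Ba had signals of 1235, 1409.7 and 1377 at 6 weeks, against 5191, 5487 and 5057 at 3 weeks, 9449, 8939.7 and 9134 at 9 weeks and 2266, 2462 and 2302 in normal liver. RT1-Ba encodes an alpha chain of the rat class II molecule. Its signal was higher at 9 than at 3 weeks and at 6 weeks below normal liver, without overlap between any 2 groups, with a contrast of -2.36 ± 0.05 (adjusted p = 5.79e-16) by limma. Cd74 had signals of 5148, 5258 and 5294 at 6 weeks, against 14998, 14607 and 14212 at 3 weeks, 19637, 20827 and 20536 at 9 weeks and 4996, 4939.7 and 4927 in normal liver. Cd74, the invariant chain that guides class II molecules to the peptide compartment, was at 6 weeks only just above normal liver and far below 3 and 9 weeks, without overlap, with a contrast of -1.72 ± 0.03 (adjusted p = 3.68e-16) by limma.

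RT1-Db1, RT1-Bb and RT1-Da gave -1.98 ± 0.05, -1.96 ± 0.04 and -1.87 ± 0.04. A second probe set of RT1-Bb gave a mean signal of 526.6 at 3 weeks, 12.5 at 6 weeks and 1017 at 9 weeks, against 13.1 in normal liver. RT1 genes are paralogs and vary between rat strains, so the assignment of a signal to 1 of them is uncertain. For RT1-Ba a second probe set gave -2.23 and another, near the filter level, -0.21. Ciita, the coactivator that turns these genes on, was dim, with means of 112, 61.1 and 169, and its contrast of -0.98 ± 0.31 missed 2-fold. The lysosomal protease Ctss (-0.78 ± 0.04) and the reductase Ifi30 (-0.07 ± 0.06), which prepare antigen for loading, did not pass. Hla-dmb, a class II peptide exchange gene under the human-style name of the file, was in no list, was picked out after its value was seen, and dipped at -1.25 ± 0.04.

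In the MHC class I pathway 5 of 13 measured genes dipped, and the median contrast was -0.79. In 12 of the 13 all 3 arrays of 6 weeks lay below the 6 of 3 and 9 weeks, against 12.3% of all genes tested. The dips were the 3 catalytic subunits that make the immunoproteasome, Psmb9, Psmb8 and Psmb10, the peptide pump subunit Tap1, and RT1-S3. Psmb9 had signals of 1339, 1502 and 1398 at 6 weeks, against 5786, 5924 and 5578 at 3 weeks, 7322, 7256 and 7304 at 9 weeks and 3372, 3385 and 3206 in normal liver. The 6 week arrays were the lowest of the 12, and Psmb9 had a contrast of -2.19 ± 0.04 (adjusted p = 3.65e-16) by limma. Psmb8 gave -1.67 ± 0.04, Psmb10 -1.16 ± 0.05 and Tap1 -1.40 ± 0.07. The light chain B2m (-0.39 ± 0.05) and the chaperone Tapbp (-0.23 ± 0.07) did not pass. Of 29 measured subunits of the constitutive proteasome, 0 were called and the median contrast was 0.09.

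Antiviral genes that type I interferon induces were affected less evenly. Of 23 measured, 5 dipped (Mx1, Mx2, Ifit3, Irf7 and Ifi44l), and the median contrast was -0.51. With a pseudocount of 64 the count was 2. A second probe set of Mx2 gave -0.57, with -0.04 against 9 weeks, and was not called. Mx1 had signals of 115, 129 and 146 at 6 weeks, against 872, 843 and 861 at 3 weeks, 280.0, 275 and 308 at 9 weeks and 432, 398 and 396 in normal liver. Mx1 is a GTPase that traps viral particles. Its 3 week arrays were the highest, its 6 week arrays the lowest, and a contrast of -1.82 ± 0.10 (adjusted p = 1.28e-10) was found by limma. Irf7, the master factor of type I interferon production, gave -1.31 ± 0.06. Several others did not pass, such as Stat2 (-0.36 ± 0.08), Oas1a (-0.18 ± 0.07) and Isg15 (-0.84 ± 0.07). Rsad2 was 0.37 against 3 weeks and -1.40 against 9 weeks, and Oasl 0.90 and -0.76, so both were highest at 9 weeks.

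Markers of T, NK and cytotoxic cells dipped in 17 of 27 measured genes. In 25 of 27 all 3 arrays of 6 weeks lay below all 6 of 3 and 9 weeks, against 12.3% of all genes tested. The median contrast was -1.25. Many of these genes are dim, and with a pseudocount of 64 in place of 16 the count was 11 dips and the median -0.96. Cd3d had signals of 10.7, 10.9 and 14.2 at 6 weeks, against 152, 196 and 154 at 3 weeks, 162, 124 and 156 at 9 weeks and 123, 57.9 and 82.5 in normal liver. Cd3d is a chain of the T cell receptor complex. Its 6 week signals were close to the bottom of the scale, and it had a contrast of -2.62 ± 0.23 (adjusted p = 9.05e-08) by limma. Prf1 had signals of 61.8, 52.1 and 8.8 at 6 weeks, against 223, 179 and 209 at 3 weeks, 251, 259 and 230.1 at 9 weeks and 295, 353 and 253 in normal liver. Prf1, perforin, is the pore-forming protein of killer cells, and its 6 week arrays lay below every other array, with a contrast of -2.24 ± 0.27 (adjusted p = 3.79e-06) by limma.

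The granzymes, the proteases that perforin delivers, dipped together: Gzmm at -2.55 ± 0.23, Gzma at -2.25 ± 0.15, Gzmb at -1.48 ± 0.22 and Gzmk at -1.43 ± 0.12. Granzyme genes are paralogs with similar sequence. Ccl5 had signals of 351, 313 and 375 at 6 weeks, against 1541, 1549 and 1406 at 3 weeks, 1792, 1719.7 and 1654 at 9 weeks and 1619, 1556 and 1616 in normal liver. Ccl5, is a chemokine stored by killer cells, and its 6 week arrays stood apart below the rest (-2.16 ± 0.06). Of the NK receptors, Klrd1 gave -1.46 ± 0.14 and Klrb1a -1.24 ± 0.23. Cxcr3, the receptor of Cxcl9, also dipped at -1.25 ± 0.16.

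In the T cell receptor machinery the kinase Zap70 dipped at -1.40 ± 0.22, and so did the receptor chain Tcrb, which is in no list and was picked out after its value was seen, at -1.08 ± 0.15, with -3.04 on a second probe set. Others fell short of 2-fold against the average of 3 and 9 weeks: Cd3g had -0.94 ± 0.17, Cd3e -0.82 ± 0.19, Cd247 -0.73 ± 0.20 and the kinase Lck -0.73 ± 0.10. Cd8a, a coreceptor of killer T cells, had -0.56 ± 0.19. Cd4, which macrophages of the rat carry as well as helper T cells, had means of 414, 396 and 318 and a contrast of 0.12 ± 0.10. Il7r, a receptor of resting T cells, had -0.05 ± 0.11. The summed signal of the 27 genes was 3952 to 4481 at 6 weeks, 10194 to 10556 at 3 weeks, 10031 to 10244 at 9 weeks and 9395 to 9690 in normal liver. That of the 12 interferon-gamma response genes was 12866 to 13132 at 6 weeks, 36462 to 37283 at 3 weeks, 38294 to 40166 at 9 weeks and 25700 to 26590 in normal liver. The 8 MHC class II genes summed to 20221 to 20544 at 6 weeks, 50106 to 51634 at 3 weeks, 70276 to 71478 at 9 weeks and 24363 to 24603 in normal liver. Each of the 3 sums was lowest on the 3 arrays of 6 weeks, and the part of the cell markers in the interferon and MHC results was not tested.

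**Figure D2:**
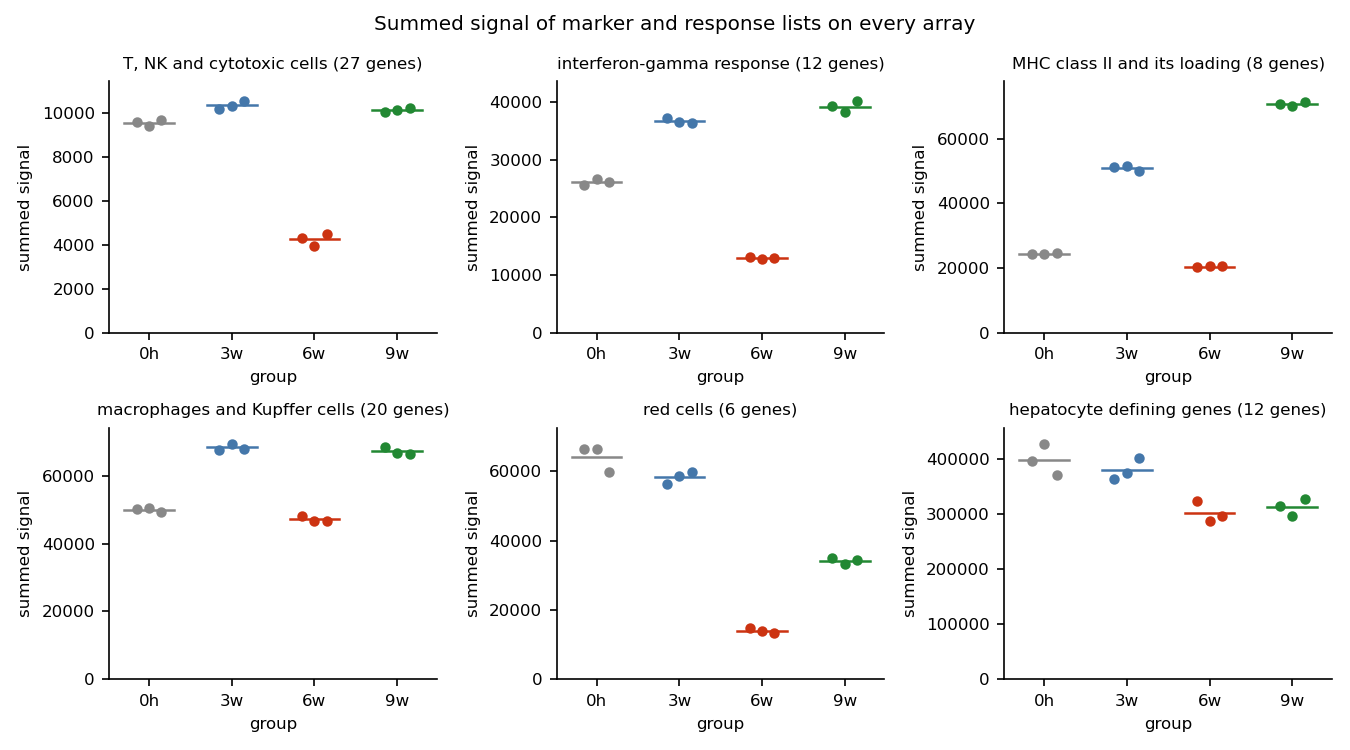
Summed signal of all measured genes of 6 lists on each of the 12 arrays (points), with the group mean (bar), on a linear axis from 0. The 3 arrays of 6 weeks are the lowest in 5 of the panels. MHC class II and macrophage genes at 6 weeks stand close to normal liver, and the sums of the 12 hepatocyte genes overlap between 6 and 9 weeks.

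Macrophage markers dipped in 3 of 20 measured genes, with a median contrast of -0.77. In 14 of 20 all 3 arrays of 6 weeks lay below those of 3 and 9 weeks, against 12.3% of all genes tested. The dips were the Fc receptor Fcgr3a (-1.60 ± 0.07), Aif1, a calcium-binding protein of macrophages (-1.38 ± 0.05), and the integrin Itgam (-1.27 ± 0.25). A second, dimmer probe set of Aif1 gave -0.48 and was not called. Fcgr3a had signals of 501, 395 and 409 at 6 weeks, against 1314, 1258 and 1266 at 3 weeks, 1481, 1368 and 1393 at 9 weeks and 876, 855 and 849 in normal liver. The 6 week arrays were below all others, normal liver included. Clec4f, a lectin of Kupffer cells, had -0.67 ± 0.04, the macrophage receptor Csf1r -0.77 ± 0.06, and the scavenger receptor Cd163 0.29 ± 0.09, and these did not pass. Gpnmb, a glycoprotein of lipid-laden macrophages, was highest at 9 weeks instead, with means of 2921, 6619.7 and 9702. The macrophage sum was 46814 to 48210 at 6 weeks, 67879 to 69614 at 3 weeks, 66599 to 68630 at 9 weeks and 49523 to 50589 in normal liver, so the 6 week arrays were the lowest but stood close to normal liver; the part of macrophages in the MHC class II result was not tested.

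Among 20 chemokines, cytokines and adhesion molecules, 2 dipped, 8 were lower by the contrast, 1 was higher and the median was -0.88. Ltb, the membrane lymphotoxin of lymphocytes, dipped at -2.21 ± 0.14, and Cxcl13, which attracts B cells into follicles, at -2.17 ± 0.11. Ltb had signals of 150.5, 116 and 162 at 6 weeks, against 1205, 1015 and 982 at 3 weeks, 372, 576 and 500.0 at 9 weeks and 362, 369 and 273 in normal liver. The 6 week arrays of Ltb were the lowest of the 12. The monocyte attractants Ccl2 and Ccl3 did not pass, with -0.06 ± 0.15 and -0.08 ± 0.16, and both had their highest mean at 9 weeks (405 and 338). B and plasma cell markers had 0 calls among 9 measured and a median of -0.47. The 6 measured granulocyte and mast cell genes had 0 calls as well. Igha_mapped and the mast cell protease Mcpt9 are not in these lists, were picked out after their values were seen, and both dipped. Igha_mapped, named for an immunoglobulin heavy chain, had a contrast of -1.21 ± 0.04. Its further probe sets gave -0.40 and 0.16 and were not called. Mcpt9 had mean signals of 352, 45.2 and 144 at 3, 6 and 9 weeks. S100a9, a neutrophil protein, went from 6253 at 3 weeks to 1361 and 787 at 6 and 9 weeks.

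Red cell genes dipped in 3 of 6 measured, Hbb, Hba-a2 and Alas2, with a list median of -1.56. Hbb had signals of 5034, 4911 and 4838 at 6 weeks, against 23795, 25244 and 25334 at 3 weeks, 12736, 12635 and 13038 at 9 weeks and 28121, 27828 and 25109.5 in normal liver. Hbb, a globin chain, was lowest on the 3 arrays of 6 weeks and intermediate at 9 weeks, with a contrast of -1.85 ± 0.04 (adjusted p = 1.17e-15) by limma. Alas2, the erythroid enzyme of haem synthesis, gave -1.72 ± 0.09 and Hba-a2 -1.65 ± 0.05. Globin genes are near-identical copies, so their probe sets may share signal. Ahsp, a chaperone of alpha globin, did not come back at 9 weeks, with means of 302, 23.8 and 24.8. The red cell sum was 13393 to 14777 at 6 weeks, 56324 to 59837 at 3 weeks, 33148 to 34985 at 9 weeks and 59821 to 66438 in normal liver. Blood left in the tissue carries lymphocytes too, and its part in the dips of T and NK cell genes was not tested.

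Of 17 endothelial genes 1 dipped, Plvap, the diaphragm protein of fenestrated endothelium, and the median was -0.41. Plvap had signals of 116, 275 and 49.0 at 6 weeks, against 837, 894 and 591 at 3 weeks, 708, 670.5 and 627 at 9 weeks and 708, 713 and 701 in normal liver. The 6 week arrays of Plvap differed several-fold among themselves, yet all lay below the other 9 (-2.43 ± 0.29). Of 21 stellate cell and myofibroblast genes only the intermediate filament Vim dipped, at -1.10 ± 0.06, and the list's median was -0.15. Without 3 week replicate 2 the list had 0 dips. In the bile duct and progenitor list 1 of 15 genes dipped, Anxa3, a phospholipid-binding annexin (-1.23 ± 0.05), and 1 peaked, Spp1. Averaging all probe sets of Anxa3 gave -0.98, which is short of 2-fold, and without 9 week replicate 2 or 3 the list had 0 dips.

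Outside these classes stood some of the deepest dips. Car3 had signals of 105, 68.8 and 129 at 6 weeks, against 26010.5, 28822 and 29778 at 3 weeks, 375, 391 and 424 at 9 weeks and 35373, 36228 and 30935 in normal liver. Car3, a carbonic anhydrase abundant in male rat liver, lost most of its signal by 6 weeks and regained little by 9 weeks, with a contrast of -4.90 ± 0.11 (adjusted p = 2.09e-15) by limma. A second probe set of Car3 stepped -6.32 from 3 to 6 weeks but only -0.36 for 6 against 9 weeks, so the rise at 9 weeks rests on 1 probe set. A2m had signals of 121, 109 and 93.4 at 6 weeks, against 18442, 20020.1 and 18134 at 3 weeks, 254, 214 and 244 at 9 weeks and 760.1, 744 and 714 in normal liver. A2m is a protease inhibitor and acute phase protein of the rat. It was high at 3 weeks alone, and the step against 9 weeks, -1.04, barely passed 2-fold (contrast -4.15 ± 0.08).

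Pla2g2a, a secreted phospholipase of inflammation, was low at 6 weeks alone. Pla2g2a had signals of 34.3, 57.3 and 23.9 at 6 weeks, against 570.0, 625 and 547 at 3 weeks, 261, 212 and 238 at 9 weeks and 199.7, 209 and 287 in normal liver. Its 6 week arrays lay below all others, and its 9 week arrays overlapped those of normal liver (contrast -2.88 ± 0.18, limma adjusted p = 9.91e-10). Ces1d, a carboxylesterase of hepatocytes, had means of 9203, 5957, 236 and 617 from 0h to 9 weeks, and Nrep, a small protein expressed in regenerating tissue, had 3470.2, 5149, 139 and 301. Both therefore stayed far below their 3 week level at 9 weeks. Sez6, a membrane protein best known from neurons, gave -2.87 ± 0.21, the adenosine receptor Adora3 -2.54 ± 0.27, and Plac8, a small cysteine-rich protein, -2.33 ± 0.07. Samd9, an interferon-inducible growth regulator in human cells, gave -2.32 ± 0.09.

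**Figure D3:**
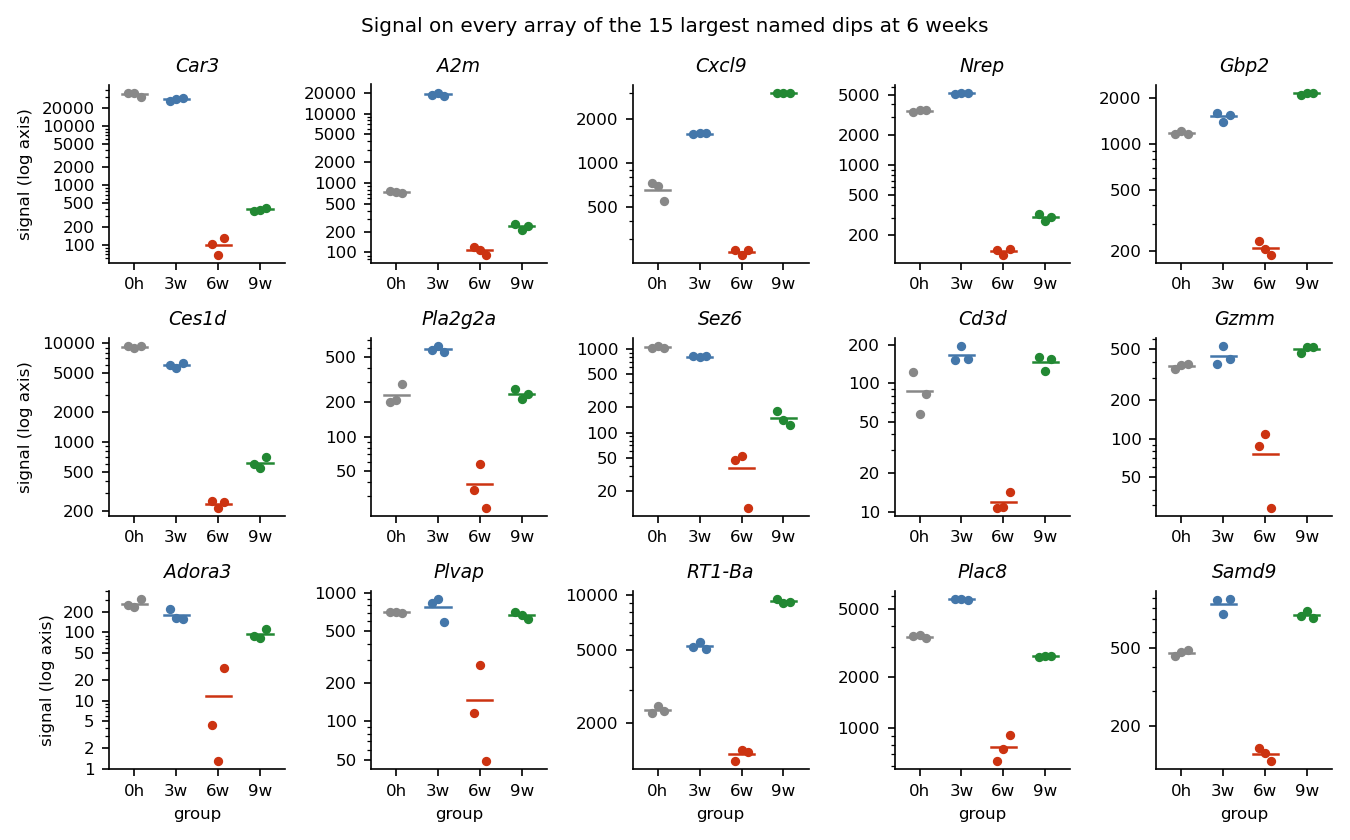
Signal on each of the 12 arrays (points, log axis) and group mean (bar) of the 15 named dips with the largest contrast. In every panel the 3 arrays of 6 weeks lie below the 3 and 9 week arrays, and Car3, A2m, Nrep, Ces1d and Sez6 stay well below their 3 week level at 9 weeks.

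Some enzymes and secreted proteins of hepatocytes were among the dips. Fads1, a desaturase of polyunsaturated fatty acids, had means of 7597, 1864 and 4187 (-1.59 ± 0.07). Fmo1, a flavin monooxygenase, gave -1.78 ± 0.05, Hsd17b2, which inactivates sex steroids, -1.37 ± 0.05, and Serpina6, the corticosteroid-binding globulin, -1.36 ± 0.04. Bcl6 had signals of 253, 286 and 266 at 6 weeks, against 1325, 1262 and 1237 at 3 weeks, 849, 827 and 753 at 9 weeks and 279.5, 156 and 175 in normal liver. Bcl6 is a transcriptional repressor of lymphocytes and, in the mouse, of sex-biased liver genes, and its 6 week arrays stood below 3 and 9 weeks and overlapped normal liver (-1.86 ± 0.13).

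Of the 126 dips 67 belong to none of the 48 lists. These 67 were looked through after their values were seen and were not tested as a group. Among them are the lymphocyte membrane proteins Cd69 (-1.36), Cd7 (-1.14) and the GTPases Gimap4 (-1.44) and Gimap7 (-1.22), the leukocyte actin regulator Coro1a (-1.77) and the inflammasome adaptor Pycard (-1.44). Another 12 have only locus or clone names. LOC686634 had the largest contrast of all genes, -4.92 ± 0.04: its signals were 644, 639 and 667 at 6 weeks, 15336, 15925 and 16711 at 3 weeks, 25970.4, 23868 and 26830.5 at 9 weeks and 16344, 15126 and 15081 in normal liver. The file describes it as a hypothetical protein, and no role is known here. MGC108823 (-3.58) and RGD1309362 (-3.12) carry file titles of likeness to an interferon-inducible GTPase.

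The 14 peaks were led by Lcn2, lipocalin 2, an iron-siderophore binding protein that injured hepatocytes secrete. Lcn2 had signals of 7875, 7804 and 7706 at 6 weeks, against 2514, 2628 and 2421 at 3 weeks, 399, 422 and 476 at 9 weeks and 542, 501 and 526 in normal liver. No groups overlapped: the 9 week arrays lay just below normal liver, the 6 week arrays above all, and Lcn2 had a contrast of 2.88 ± 0.06 (adjusted p = 3.68e-16) by limma. In the same list of 29 acute phase and STAT3 genes there were 2 dips (A2m and Pla2g2a) and no other peak, and the median contrast was -0.22. Without 6 week replicate 3 or 9 week replicate 1 the list had 1 dip. Il1rn, the interleukin-1 receptor antagonist, had 0.99 ± 0.16 and Hamp, the iron hormone hepcidin, 0.74 ± 0.04, and neither passed.

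Noct, a circadian gene for a phosphatase that acts on NADP cofactors, came next. Noct had signals of 1315, 1248 and 1241 at 6 weeks, against 189, 155 and 156 at 3 weeks, 415, 347 and 348 at 9 weeks and 401, 341 and 474 in normal liver. The 6 week arrays were above all others, and Noct had a contrast of 2.28 ± 0.11 (adjusted p = 2.99e-11) by limma. Of the 16 measured clock genes 0 peaked or dipped and 3 were lower by the contrast: Dbp and Nr1d1 through 9 weeks alone (-1.69 and -2.28) and Per2 through 3 weeks alone (-1.88). The hour of sampling is not given, and its part in the level of Noct was not tested.

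Pdk4 had signals of 1386, 1628 and 1344 at 6 weeks, against 658, 788 and 626 at 3 weeks, 499.8, 533 and 568 at 9 weeks and 1597, 1831 and 1669 in normal liver. Pdk4 is the kinase that shuts pyruvate dehydrogenase when fat is burned. The 6 week arrays lay above those of 3 and 9 weeks and overlapped normal liver (contrast 1.24 ± 0.08, limma adjusted p = 2.41e-09). Without 3 week replicate 3 or 6 week replicate 2 Pdk4 no longer passed as a peak, since its step from 3 weeks of 1.06 is close to 2-fold. Sds had signals of 4242, 3836 and 3819.8 at 6 weeks, against 1246, 1259 and 1465 at 3 weeks, 1766, 1636 and 1554 at 9 weeks and 5408, 5399.6 and 5208 in normal liver. Sds, serine dehydratase, feeds serine into gluconeogenesis, and its 6 week arrays lay above 3 and 9 weeks and below normal liver (1.42 ± 0.06).

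Irs2 had signals of 1234, 1338 and 1362 at 6 weeks, against 576, 651 and 457 at 3 weeks, 405, 509.8 and 519.5 at 9 weeks and 263, 202 and 251 in normal liver. Irs2, the adaptor of the hepatic insulin receptor, was thus highest at 6 weeks, with a contrast of 1.32 ± 0.11 (adjusted p = 7.45e-08) by limma. Lpin1, a phosphatidate phosphatase and coactivator of fat oxidation, gave 1.34 ± 0.05; without 6 week replicate 2 or 9 week replicate 2 it no longer passed as a peak. Prkaa1, a catalytic subunit of the energy sensor AMP kinase, gave 1.27 ± 0.17, and Ppm1k, the phosphatase that activates branched-chain amino acid breakdown, gave 1.73 ± 0.08, with 1.19 on a second probe set. In neighbouring lists Got1, an aspartate aminotransferase, was higher by the contrast at 1.27 ± 0.04, while Tat, tyrosine aminotransferase (0.95 ± 0.04), and G6pc1, the glucose-releasing phosphatase (0.76 ± 0.04), did not reach 2-fold.

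Slc38a2 had signals of 8986, 9469 and 9098 at 6 weeks, against 2191, 2247 and 2004 at 3 weeks, 4465, 4298 and 4236 at 9 weeks and 2043, 2112 and 1859 in normal liver. Slc38a2 takes up neutral amino acids and is a target of the stress factor ATF4. Its 6 week arrays were above all others (1.59 ± 0.05). Slc1a2, a glutamate carrier, gave 1.48 ± 0.20 and Mfsd2a, a carrier of lysophospholipids that fasting induces in mouse liver, 1.45 ± 0.06. The other peaks were Gem, a small GTPase (1.75 ± 0.27), Spp1, osteopontin, a matrix cytokine of injured liver (1.67 ± 0.11), and Glod5, of the glyoxalase family (1.25 ± 0.14).

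**Figure D4:**
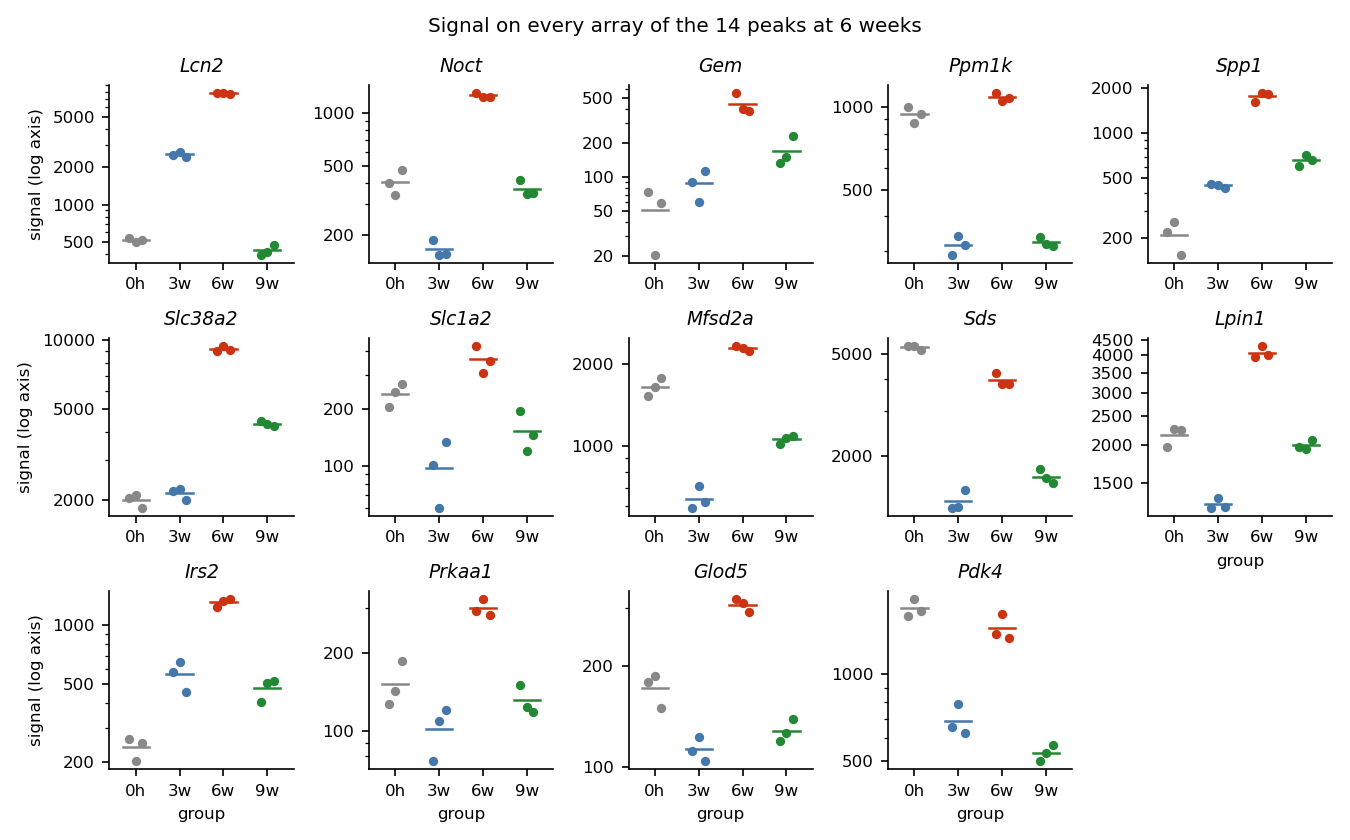
Signal on each of the 12 arrays (points, log axis) and group mean (bar) of the 14 peaks. The 3 arrays of 6 weeks lie above the 3 and 9 week arrays in every panel, while in Pdk4 and Sds normal liver stands as high or higher.

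Of the 48 lists 28 held neither a dip nor a peak, with median contrasts from -0.52 to 0.46. Of 23 measured genes of serine, glycine and asparagine synthesis with ATF4 targets, 1 peaked and 5 were higher, with a median of 0.57, but the list's median for 6 against 9 weeks was -0.06. Trib3, a pseudokinase of the stress response, shows this shape, with means of 274, 3902 and 3518. Of 19 endoplasmic reticulum chaperones 1 was called higher (Sdf2l1, 1.01 ± 0.05). In 15 of them all 3 arrays of 6 weeks lay above the 6 of 3 and 9 weeks and in 1 below. Over all genes tested these shares were 10.0% and 12.3%. Contrasts of the chaperones ran from -0.43 to 1.01, with a median of 0.46. Cytosolic ribosomal proteins had 24 of 46 above all 6 others, against the same 10.0%, with 0 calls and a median of 0.24.

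Lipid synthesis genes held few dips and peaks. Of 24 genes of cholesterol synthesis and LDL uptake, 15 had all 3 arrays of 6 weeks below those of 3 and 9 weeks, against 12.3% of all genes tested. By the contrast 2 were lower (1 of them Tm7sf2, a sterol reductase), with a median of -0.41 and 0 dips. Hmgcs1, an early enzyme of the path, had means of 8073, 4290.1 and 8300.3 and a contrast of -0.93 ± 0.05. Of 23 genes of fatty acid and triglyceride synthesis, 10 had all 3 arrays of 6 weeks below those of 3 and 9 weeks and 3 had them above. Over all genes tested these shares were 12.3% and 10.0%. By the contrast 5 of the 23 were lower, while 1 dipped (Fads1) and 1 peaked (Lpin1). The list's median for 6 against 9 weeks was -0.07. Fasn, fatty acid synthase, stepped -2.18 from 3 to 6 weeks and -0.78 for 6 against 9 weeks.

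The listed genes of the scar showed no dip. Of 26 collagens and matrix proteins, 2 were lower by the contrast, Lum and Col1a1, and the median was -0.36. In 9 of the 26 all 3 arrays of 6 weeks lay below the 6 of 3 and 9 weeks, against 12.3% of all genes tested. Col1a1 had signals of 338, 350.1 and 258 at 6 weeks, against 727, 773 and 814 at 3 weeks, 492, 518 and 602 at 9 weeks and 155, 139.9 and 158 in normal liver. Col1a1, a chain of type I collagen, had 6 week arrays between those of normal liver and the other times, with a contrast at the 2-fold limit and a second probe set at -0.60. Lum, a collagen-binding proteoglycan, was high at 3 weeks only, with means of 611, 63.4 and 70.4. The matrix proteins Mfap4 and Sbspon are not in this list and were picked out after their values were seen. Both dipped, Mfap4 at -1.06 ± 0.19 and Sbspon, with a mean of 18.9 at 6 weeks, at -2.15 ± 0.33. Of 36 cell cycle genes 2 were higher (Cdkn3 and Rrm2) and 1 lower (Cdc25b), and 0 peaked or dipped. A second, dimmer probe set of Rrm2 was a peak, with a contrast of 1.15.

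**Figure D5:**
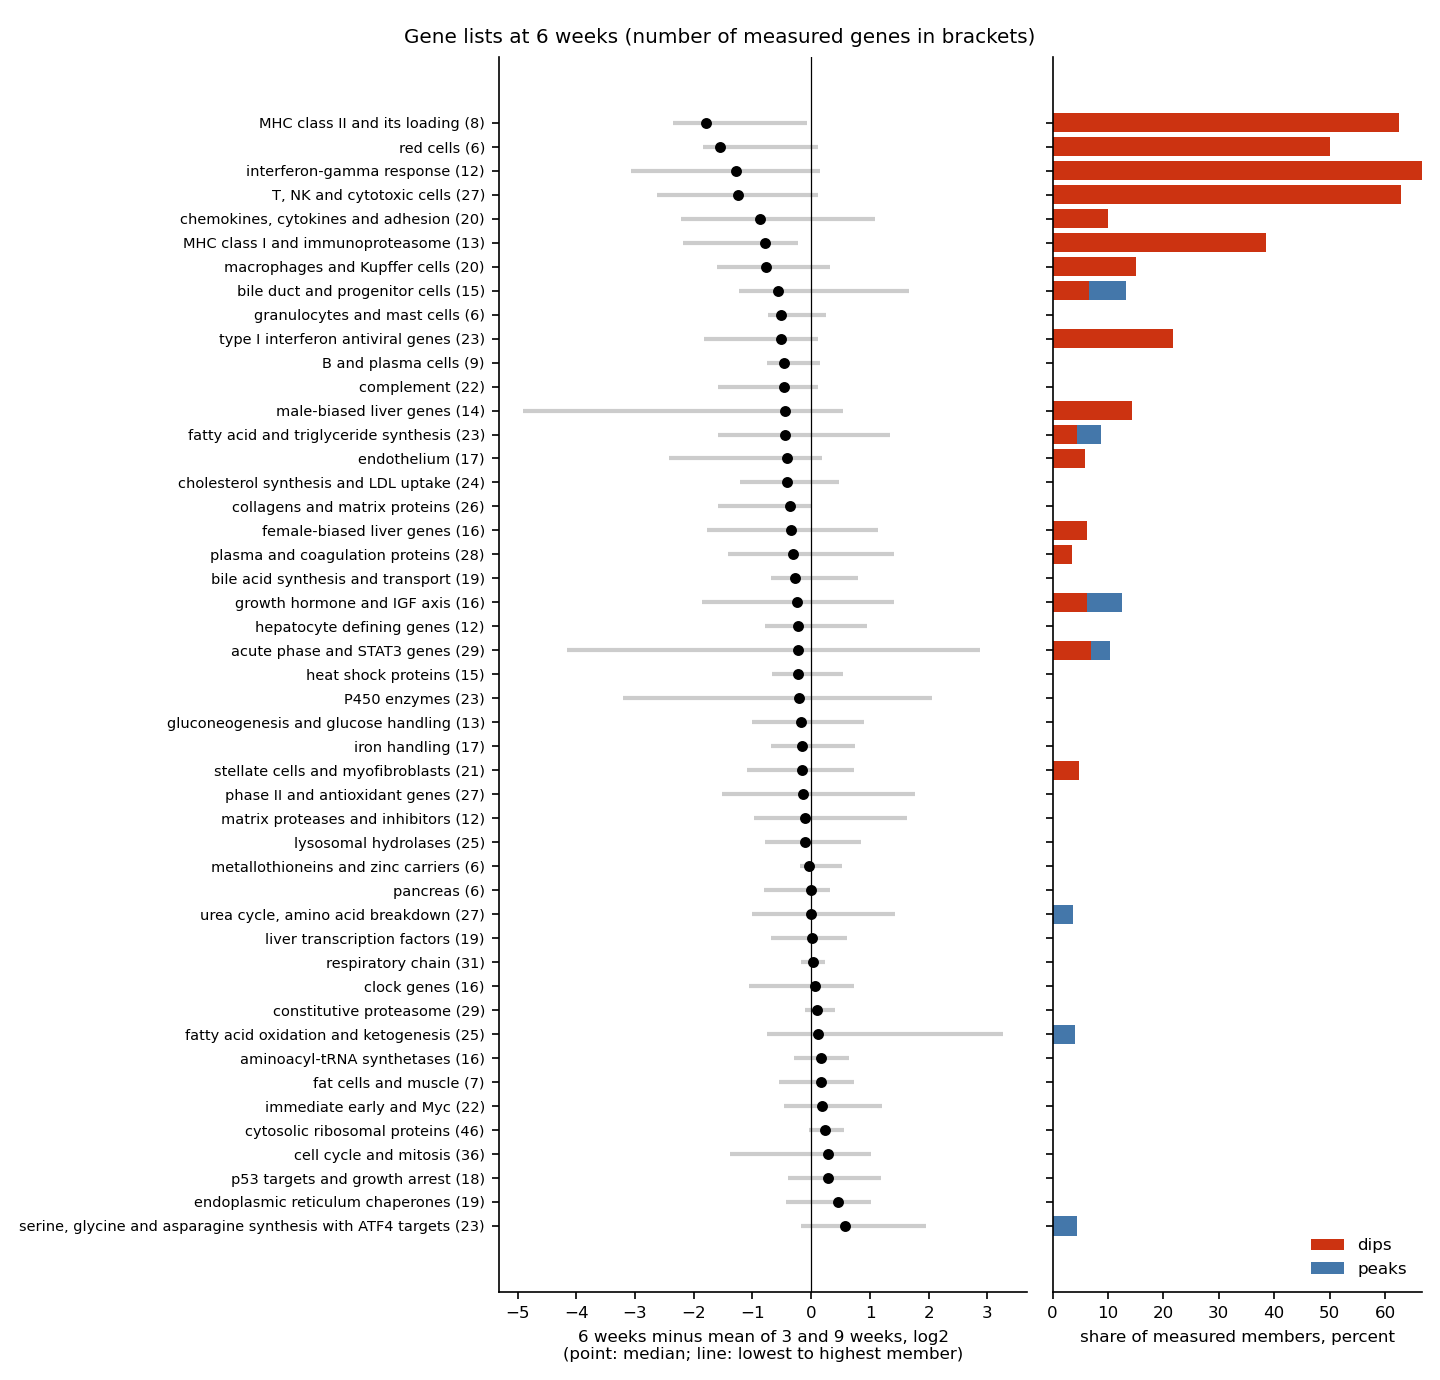
Left, for each of 47 lists with at least 5 measured genes, the median contrast of 6 weeks against the mean of 3 and 9 weeks (point) and the range of its members (line), in log2 units; right, the share of members that dipped (red) or peaked (blue), in percent. Lists are in order of their medians: MHC class II, red cells, interferon-gamma response and T, NK and cytotoxic cells are at the top, each with between 3 of 6 and 8 of 12 members dipping.

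A contrast with the mean of 2 times also passes when 6 and 9 weeks are alike and only 3 weeks differs, and 70 higher and 115 lower genes passed it without both steps. The largest of each show this. Acot1, an acyl-CoA thioesterase that PPAR-alpha induces, had means of 26.1, 3845 and 3792 at 3, 6 and 9 weeks, a contrast of 3.27 ± 0.20 and a step of 0.02 against 9 weeks. Cyp2c11, the male-specific P450 of the rat, had 16154, 216 and 266, with -0.28 against 9 weeks. In both, 6 and 9 weeks were close and 3 weeks stood apart. Fst, an activin antagonist, was high at 3 and 6 weeks and low at 9, with 579, 901 and 119.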

How the data were processed

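Liver RNA was measured on 12 one-colour arrays. The deposited workbook has, per the file headers, a linear signal (intensity) column for each array; the authors had scaled these intensities, since the mean of each array after trimming 2% from each end was 500.2. GCOS 2.0 is the program in the submitters' processing notes. The deposited value table of the series holds the same intensities within 0.1. Columns without a sample: 0. Detection calls were not used here.

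Signals were taken as log2(signal + 16) without renormalization, with array medians of 7.09 to 7.31. Probe sets were kept when their mean over 12 arrays was above the 40th percentile (a signal of 75.5), and the brightest kept probe set with a gene symbol in the file stood for its gene, which gave 10315 genes. Symbols were updated with a RefSeq table, 2960 through a synonym and 244 through an accession.

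The 4 group means were fitted with limma 3.58.1 in R 4.3.3 (eBayes with an intensity trend, 8 residual degrees of freedom, median residual SD 0.131) and tested on simulated data. The number of arrays limits the precision. The replicate numbers did not pair the arrays: deviations of same-numbered arrays correlated at -0.04 to 0.13, above 0.1 in 2 of 18 pairs.

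Named are the peaks and dips with the largest contrast, up to 15 each without locus names, the largest of each in every list, and list members with their values. The comparison, the 48 gene lists and this rule were chosen with earlier results of these data known. No set test was run. Some genes are not reported here by name. Alternatives changed the pseudocount, filter, scaling, probe sets, arrays used, variance trend, block and fold minimum, or left out 1 array. Figures were drawn with matplotlib 3.10.9 in Python 3.11.15.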

Additional observations from a re-analysis of the deposited data

How the results depend on the processing

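None of the 40 named genes changed the sign of its contrast in any alternative run that tested it. Counts and list medians were labelled only as same or moved. The counts of 84 higher, 241 lower, 14 peaks and 126 dips moved by over 1.5 times in 3 settings. With every probe set and no filter there were 191 higher, 364 lower and 45 peaks (170 dips). With a fold minimum of 1.5 there were 350 higher, 723 lower, 70 peaks and 353 dips, and with none 2011 higher, 2056 lower, 617 peaks and 919 dips. Leaving out each array in turn gave 81 to 91 higher, 239 to 258 lower, 14 to 17 peaks and 124 to 134 dips. Over the 48 lists, 19 of the list counts so computed and 43 of the medians moved. In these runs that left out 1 array, no immune list was among those whose number of dips moved. The counts that did were of 2 genes or fewer. Matrix proteins, matrix proteases, cholesterol synthesis and cell cycle genes, with 0 dips, gave 1 dip without 1 or more arrays. A pseudocount of 64 moved 5 list counts and a pseudocount of 1 moved 4. With 64, immune lists moved too: T, NK and cytotoxic cells from 17 to 11 dips and type I interferon genes from 5 to 2. The fit with the replicate number as a block, although the numbers do not pair the arrays, gave 84, 241, 14 and 126 again. With a pseudocount of 64 there were 84 dips, all among the 126, and 11 peaks, without Glod5, Prkaa1 and Slc1a2; these 3 and Gem were also lost with the filter at the 60th percentile, which tests fewer dim genes. A pseudocount of 1 gave 142 dips and 17 peaks, quantile normalization 124 and 14, and median centring 121 and 15. For dips whose 6 week signals lie near the bottom of the scale, the size of the contrast depends on the pseudocount.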

Other observations

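Of 4802 tested probe sets without a symbol in the file, 39 dipped (0.812%) and 2 peaked (0.0416%). The deepest of these dips had mean signals of 4664 in normal liver and 5002, 94.8 and 551 at 3, 6 and 9 weeks, and the next had 1244, 4489, 247 and 2606. One peak had 1055, 879.5, 3709 and 1745 in the same order, and the other 276, 26.7, 171 and 74.5. What these probe sets detect is not known here.

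Among the dips, 22 genes had further kept probe sets, 30 in all. Of these, 29 had a contrast of the same sign and 15 were dips themselves. For the peaks there was 1 such probe set, that of Ppm1k, and it peaked too.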
